A study of Homo sapiens with 6 samples.

Results

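Integrin subunits were followed in the EGFR-mutant human lung adenocarcinoma line HCC827 and in its osimertinib-resistant derivative HCC827OR. Members were all genes of the deposited expression table whose name is ITGA or ITGB followed by a number or a single letter, with ITGA2B counted in. These were 12 of 4439 genes in the table and 12 of the 26 integrin subunits that GENCODE annotates, and the other 14 subunits, ITGAV and ITGB1 among them, were not analysed here. RNA was sequenced from 3 libraries of the parental line, labelled sensitive to osimertinib, and 3 libraries of HCC827OR, labelled resistant. HCC827OR was raised from the parental cells by osimertinib, an inhibitor of mutant EGFR, in rising doses of 10, 50, 100 and 500 nM and then 1 and 5 µM, with 1 month at each dose. The sources used here do not say whether drug was present at harvest, whether HCC827OR is a single clone, or whether cultures were separate for each library. The p-values therefore rest on library-to-library spread, which may be technical.

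Integrins are transmembrane receptors made of an alpha and a beta subunit, and the pair decides which ligand is bound. Partners of ITGB1 include the collagen receptor subunit ITGA2, the laminin receptor subunits ITGA6 and ITGA7 and the fibronectin receptor subunit ITGA5. ITGAV joins ITGB3, ITGB6 or ITGB8 to bind ligands that carry the arginine-glycine-aspartate (RGD) motif, while ITGA6 with ITGB4 builds the hemidesmosomes that fix epithelial cells to laminin. ITGB2 with ITGAX or ITGAD is known mainly from leukocytes, and ITGA2B with ITGB3 from platelets.

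Library depth is unknown because the table holds normalized expression values with no counts, and the unit of those values is not named. Levels are therefore compared between lines for 1 gene or a sum of markers. They are not compared between genes, except to say which markers carry a sum. Over the table the values summed to between 115790 and 145175 in parental libraries and between 149956 and 152065 in resistant libraries. Every gene in the table had been called different by the authors from these same 6 libraries, so a call on a member is not independent evidence. The authors' deposited table gave 6 members as higher and 6 as lower in HCC827OR, beside 53.9% higher and 46.1% lower over all genes of the table. By limma on log2(value + 1), with Benjamini-Hochberg adjustment over all 3332 tested genes and a threshold of 0.05, 4 of the 10 tested members were higher and 6 were lower. The background was 52.5% higher and 45% lower over all tested genes, or 97.5% called in either direction. A gene could pass the filter on low values through the line in which it is high. The values of the lines did not overlap in 12 of 12 members, beside 95.2% of all genes in the table.

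Markers of epithelial cells were in the table for 9 of 10 genes and summed to between 6169 and 7688 in parental and between 2056 and 2090 in resistant libraries. All 9 fell. The keratin genes KRT7, KRT18 and KRT19 carried these sums and fell by 2.22-fold to 4.89-fold, while ESRP1 fell 160-fold and RAB25 503-fold. Lung adenocarcinoma markers were in the table for 4 of 6 genes with 5 IDs, SFTA3 having more than 1. They summed to between 363 and 377 in the parental and between 2.33 and 5.23 in the resistant line. In HCC827OR the aspartic protease gene NAPSA was 1.69 ± 0.635 and the lung lineage factor gene NKX2-1 was 0.253 ± 0.231 (SD, n = 3). Of 10 fibroblast markers 5 were in the table, with sums of 0.43 to 0.8 in parental and 32.1 to 35.7 in resistant libraries. LUM carried the resistant sum at 25.35 ± 1.76, with POSTN at 4.43 ± 0.352. The means of DCN, PDGFRB and COL3A1 were at most 1.81 in HCC827OR. The labels' extraction protocol speaks of retinas, and 2 of 10 retina markers were in the table, with sums of at most 1.12 in any library. Of 7 endothelial markers 4 were in the table, with sums of 4.99 to 10.2 in parental and 3.59 to 4.43 in resistant libraries. The adhesion molecule gene PECAM1 carried the parental sum, at 6.77 ± 2.92 against 1.08 ± 0.326 in HCC827OR. The receptor gene TIE1, the larger part of the resistant sum, rose from 0.38 ± 0.572 to 2.66 ± 0.675 (7-fold, or 53.2-fold without parental library 1). The other 2, VWF and TEK, had higher means in HCC827OR at values of at most 0.16. Resistant library 3 stood highest of its line in several epithelial or lung markers, as in ESRP1 with 0.24, 0.16 and 1.21. The part of these marker shifts in the integrin values was not tested. In bulk RNA, fewer cells of a type and less RNA per cell cannot be told apart.

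**Figure D1:**
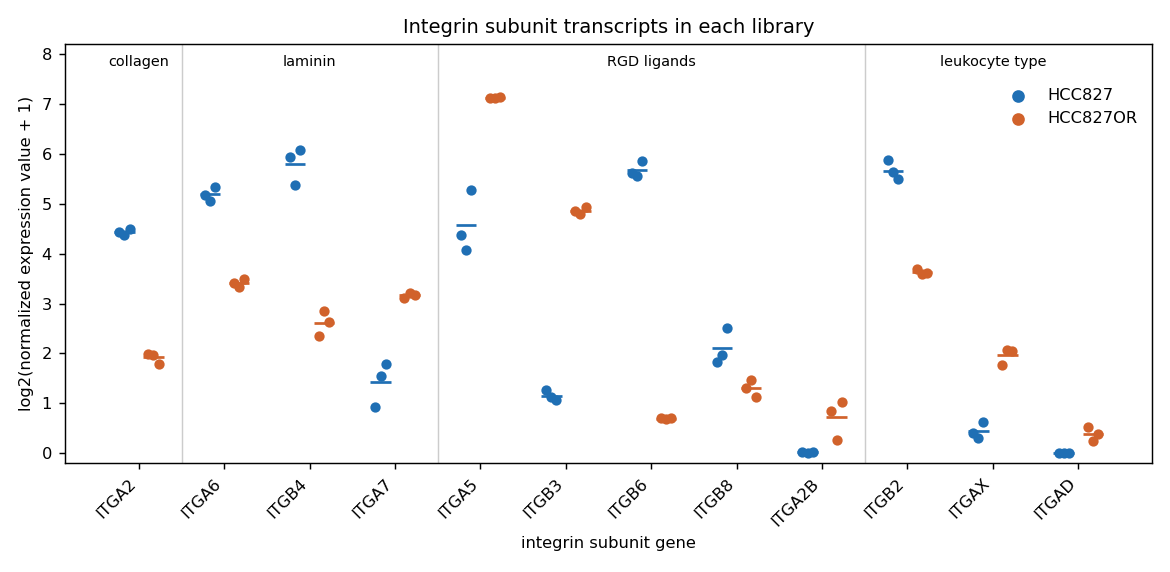
Normalized expression of the 12 integrin subunits in each library on a scale of log2(value + 1), with blue points for the 3 HCC827 and orange points for the 3 HCC827OR libraries, a short line at each mean and subunits arranged by ligand class. In ITGB6 all parental libraries lie between 46.18 and 56.8 before the transform and all resistant libraries between 0.6 and 0.63, while ITGB3 and ITGA5 are placed the other way round.

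Among the beta subunits that share the partner ITGAV, the epithelial subunit ITGB6 fell 81-fold in HCC827OR and the subunit ITGB3, best known from platelets, endothelium and osteoclasts, rose 22.9-fold. ITGB6 pairs with ITGAV in epithelia to bind fibronectin, tenascin and latent TGF-beta. ITGB6 (ENSG00000115221; chromosome 2, 160099666 to 160200313 in GRCh38, minus strand) measured 47.77, 46.18 and 56.8 in HCC827 and 0.63, 0.6 and 0.63 in HCC827OR. All parental values lay far above all resistant values, the lowest parental value being 73.3 times the highest resistant one. On the log2 scale the change was -4.98 with an SE of 0.136 (limma, adjusted p = 5.14e-07), the 28th largest fall of 3332 tested genes. The non-coding gene AC092153.1 overlaps ITGB6 on the same strand and shares 17.8% of the 50-base stretches of its transcripts.

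ITGB3 (ENSG00000259207; chromosome 17, 47253846 to 47311816, plus strand) measured 1.4, 1.18 and 1.09 in HCC827 and 27.82, 26.89 and 29.48 in HCC827OR. The resistant libraries were all high and close together, and the lowest of them was 19.2 times the highest parental one. On the log2 scale the change was 3.71 with an SE of 0.131 (limma, adjusted p = 1.03e-06), the 60th largest rise. AC068234.1, a protein-coding gene that overlaps it on the same strand and was not analysed here, shares 50.7% of the 50-base stretches of ITGB3 transcripts, so the division of reads between them is uncertain.

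ITGB8, the third measured partner of ITGAV and a receptor for latent TGF-beta, changed least. ITGB8 (ENSG00000105855; chromosome 7, 20330702 to 20415754, plus strand) measured 2.57, 2.92 and 4.69 in HCC827 and 1.48, 1.75 and 1.19 in HCC827OR, a fall of 2.3-fold. The lines were separate but close, with the lowest parental value 1.47 times the highest resistant one, and parental library 3 was the highest. The log2 change in ITGB8 was -0.80 with an SE of 0.207 (limma, adjusted p = 0.0069).

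ITGA5, the alpha subunit of the main fibronectin receptor, rose 5.66-fold. ITGA5 (ENSG00000161638; chromosome 12, 54395261 to 54419460, minus strand) measured 19.81, 15.71 and 37.97 in HCC827 and 138.55, 138.44 and 139.12 in HCC827OR. Parental library 3 was 2.14 times the mean of the other parental libraries, while the resistant libraries varied by a coefficient of variation of 0.263%. On the log2 scale the change was 2.55 with an SE of 0.293 (limma, adjusted p = 1.37e-04), and the fold was 7.81 without parental library 3. Antisense genes that were not analysed here span all 24200 bases of ITGA5, and 0.025% of the 50-base stretches of its transcripts are shared with another gene. ITGA2B, the platelet partner of ITGB3 (ENSG00000005961; chromosome 17, 44372180 to 44389505, minus strand), was too low to be tested, measuring 0.02, 0 and 0.02 in HCC827 against 0.79, 0.21 and 1.05 in HCC827OR. Of 6 platelet markers 1 was in the table, the glycoprotein gene GP1BA, at 1.28 ± 0.288 in parental and 0.66 ± 0.0361 in resistant libraries.

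**Figure D2:**
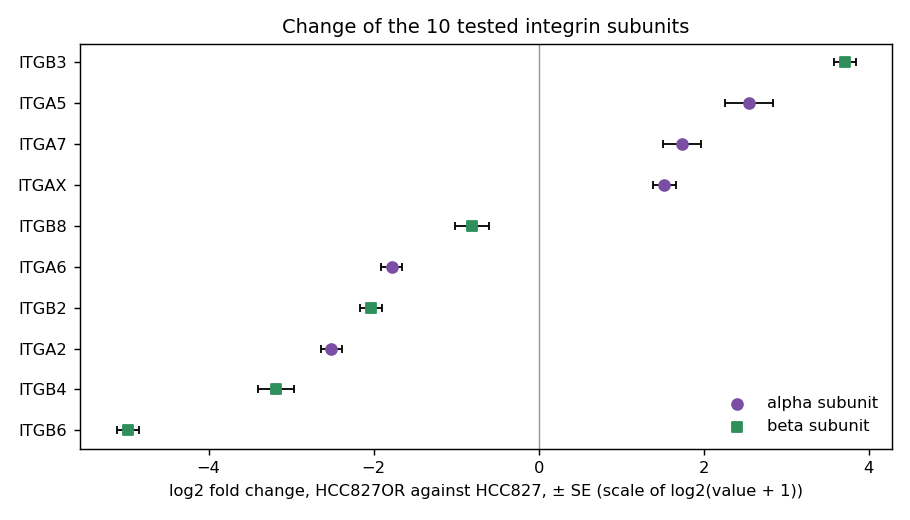
Log2 fold change of HCC827OR against HCC827 for the 10 tested integrin subunits on a scale of log2(value + 1), with bars of 1 SE from limma, circles for alpha and squares for beta subunits. ITGB3 lies farthest to the right at 3.71 and ITGB6 farthest to the left at -4.98.

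The ITGA6 and ITGB4 pair, a laminin receptor of basal epithelial surfaces, fell in both subunits, ITGB4 by 10.8-fold and ITGA6 by 3.7-fold. ITGB4 (ENSG00000132470; chromosome 17, 75721328 to 75757818, plus strand) measured 60.28, 40.27 and 66.71 in HCC827 and 4.12, 6.21 and 5.19 in HCC827OR. ITGA6 (ENSG00000091409; chromosome 2, 172427354 to 172506282, plus strand) had 35.3, 32.21 and 39.63 against 9.66, 9.01 and 10.3. In both genes every parental library was above every resistant one, the gap being wider in ITGB4. The log2 fold changes were -3.18 (SE 0.223, limma adjusted p = 1.34e-05) and -1.78 (SE 0.127, limma adjusted p = 1.44e-05). GALK1, which overlaps ITGB4 on the opposite strand, was higher in HCC827OR, at 28.8 ± 5.46 against 11 ± 1.72. Antisense genes that were not analysed here overlap ITGA6, which shares 3.17% of its 50-base stretches, and ITGA2, which shares 0.21%.

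ITGA7, a laminin receptor subunit best known from muscle, rose 4.5-fold. ITGA7 (ENSG00000135424; chromosome 12, 55684568 to 55716043, minus strand) measured 0.91, 1.93 and 2.47 in HCC827 and 7.67, 8.28 and 7.97 in HCC827OR. Parental values spread widely at a low level and resistant values lay close together above them. The log2 change in ITGA7 was 1.74 with an SE of 0.232 (limma, adjusted p = 2.83e-04). The only measured alpha subunit of the collagen receptors, ITGA2, fell 7.37-fold. ITGA2 (ENSG00000164171; chromosome 5, 52989326 to 53094779, plus strand) had 20.5, 19.73 and 21.63 against 2.98, 2.94 and 2.47, with little spread in either line. ITGA2 changed on the log2 scale by -2.51 with an SE of 0.129 (limma, adjusted p = 3.90e-06).

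Of the leukocyte-type subunits, the beta subunit ITGB2 fell 4.39-fold while its alpha partner ITGAX rose. ITGB2 (ENSG00000160255; chromosome 21, 44885953 to 44931989, minus strand) measured 57.41, 48.56 and 43.96 in HCC827 and 11.95, 11.06 and 11.14 in HCC827OR, and the groups were well apart. ITGB2 changed on the log2 scale by -2.03 with an SE of 0.133 (limma, adjusted p = 9.86e-06). The antisense gene ITGB2-AS1, which overlaps 8628 bases of ITGB2, had 2.09, 4.16 and 4.32 against 0.88, 0.83 and 0.62, and without knowledge of strand the reads of the pair cannot be told apart where they overlap.

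ITGAX (ENSG00000140678; chromosome 16, 31355134 to 31382997, plus strand) measured 0.32, 0.23 and 0.54 in HCC827 and 2.42, 3.19 and 3.14 in HCC827OR. All resistant values were above all parental ones at a low level, 8.03-fold by ratio of means, or 1.52 on the log2 scale with an SE of 0.141 (limma, adjusted p = 4.98e-05). Its neighbour ITGAD (ENSG00000156886; chromosome 16, 31393312 to 31426505, plus strand) was listed at 0 in every parental library and at 0.44, 0.18 and 0.3 in the resistant libraries, and was not tested. AC093520.1, a non-coding gene that overlaps ITGAD on the same strand, was also listed at 0 in all parental libraries and reached 0.61, 0.22 and 0.76 in HCC827OR. ITGAX shares 1.72% and ITGAD 4.32% of their 50-base stretches with other genes. Of 11 leukocyte markers 2 were in the table, CORO1A and CSF1R, with sums of 3.16 to 7.9 in parental and 2.39 to 2.66 in resistant libraries. They went opposite ways, CORO1A falling from 4.15 ± 2.52 to 0.57 ± 0.282 (limma adjusted p = 0.0021), by 7.29-fold and by 4.74-fold without parental library 3, and CSF1R rising from 0.68 ± 0.142 to 1.94 ± 0.178 (limma adjusted p = 3.82e-04), and their part in the values of ITGB2 and ITGAX was not tested.

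Promoter sequences are shown for ITGB6, ITGA5 and ITGA2, chosen from the 6 members with an entry in the RefSeq promoter table (GRCh38.p14), to let the start regions of subunits that rose and fell be read side by side. Among the 5 of these that were tested, ITGB6 and ITGA2 had the largest falls on the scale of log2(value + 1) and ITGA5 was the only one that rose, while ITGA2B, too low to be tested, is not shown. ITGB3, ITGB4, ITGB2, ITGA7, ITGAX and ITGAD had no entry. Each sequence runs 5′ to 3′ on the gene's own strand from 250 bases before the start to 50 bases after it. Capitals mark matches, on either strand, to the GC box GGGCGG, the AP-1 site TGAGTCA, the TEAD site GGAATG and the E2-box CACCTG that ZEB and SNAI factors can bind, and no matches overlapped each other.
ITGB6, chr2:160200223-160200522, minus strand: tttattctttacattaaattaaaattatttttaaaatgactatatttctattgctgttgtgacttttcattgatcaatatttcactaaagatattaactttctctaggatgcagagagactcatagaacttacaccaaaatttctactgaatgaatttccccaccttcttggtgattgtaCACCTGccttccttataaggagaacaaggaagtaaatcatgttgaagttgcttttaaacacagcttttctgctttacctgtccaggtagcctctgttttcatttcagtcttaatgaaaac
ITGA5, chr12:54419217-54419516, minus strand: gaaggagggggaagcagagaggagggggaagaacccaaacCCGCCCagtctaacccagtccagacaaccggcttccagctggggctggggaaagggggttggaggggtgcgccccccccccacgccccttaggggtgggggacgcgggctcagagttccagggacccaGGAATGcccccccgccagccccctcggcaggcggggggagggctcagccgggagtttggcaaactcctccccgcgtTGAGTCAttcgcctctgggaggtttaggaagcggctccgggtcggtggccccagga
ITGA2, chr5:52989102-52989401, plus strand: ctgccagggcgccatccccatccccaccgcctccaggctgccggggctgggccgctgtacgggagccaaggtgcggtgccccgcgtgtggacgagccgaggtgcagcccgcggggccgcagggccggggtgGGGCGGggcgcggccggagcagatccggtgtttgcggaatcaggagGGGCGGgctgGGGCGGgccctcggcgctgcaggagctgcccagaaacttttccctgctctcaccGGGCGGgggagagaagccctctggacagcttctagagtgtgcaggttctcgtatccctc

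The stretch before ITGB6 was rich in A and T letters and held 1 E2-box, whose first base lay 70 bases before the start. That before ITGA5 held 1 AP-1 site across the start, its first base 6 bases before it, 1 TEAD site and 1 GC box. That before ITGA2 held 4 GC boxes and none of the other motifs. Among 35116 promoters of the same length, 20.6% held an E2-box, 4.95% an AP-1 site, 14% a TEAD site and 45% a GC box. These are matches of letters and not sites of binding.

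Within a library, the ratio of an alpha to its beta partner is little affected by the scaling of the whole library, and its size across genes has no meaning here, so only its shift between lines was read. Both subunits were in the table for 4 known pairs. The log2 ratio of ITGA6 to ITGB4, with 1 added to both values, was -0.76, -0.31 and -0.74 in HCC827 and 1.06, 0.47 and 0.87 in HCC827OR, a shift of 1.40 (SE 0.225). ITGB4 thus lost more than ITGA6 in relative terms, and the libraries of the lines did not overlap. The log2 ratio of ITGAX to ITGB2 shifted by 3.56 (SE 0.222), that of ITGAD to ITGB2 by 2.41 (SE 0.123) and that of ITGA2B to ITGB3 by -3.01 (SE 0.203), although in these pairs the low alpha values make the shift depend on the added 1. In each of the 4 pairs the two-sided exact permutation p was 0.1, the smallest that 3 against 3 libraries can give.

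**Figure D3:**
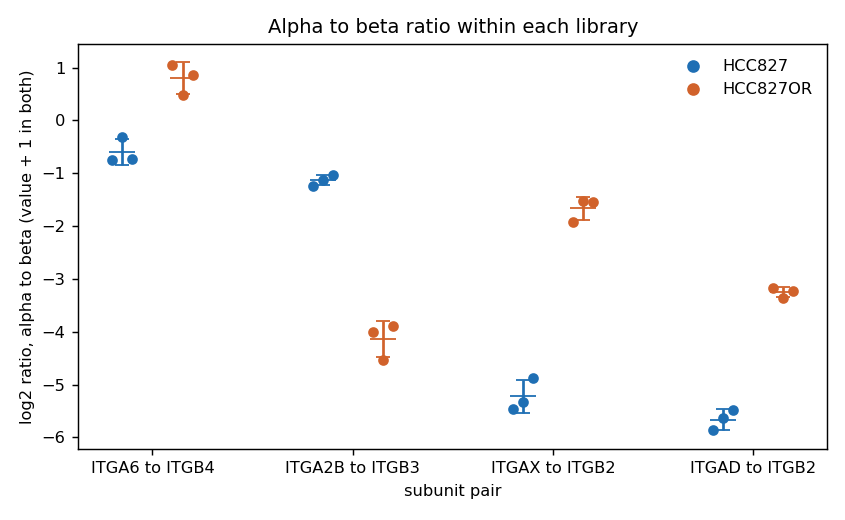
Log2 ratio of the alpha to the beta subunit within each library, with 1 added to both values, for the 4 pairs whose subunits were both in the table (points are libraries, bars are mean ± SD, n = 3 per line). The shift between blue HCC827 and orange HCC827OR points is 1.40 for ITGA6 to ITGB4 and 3.56 for ITGAX to ITGB2, and the heights themselves are not comparable between pairs.

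By subunit kind, 5 of 7 alpha subunits had higher and 2 lower means in HCC827OR, against 1 higher and 4 lower of 5 beta subunits. The higher alpha subunits include ITGA2B and ITGAD, which reached at most 1.05 and 0.44 and were too low to be tested. Of the tested alpha subunits, ITGA5, ITGA7 and ITGAX rose while ITGA2 and ITGA6 fell. The share over all genes by the authors' calls was 53.9% higher and 46.1% lower, and the contrast of alpha with beta subunits was not tested. The median log2 fold change of the 10 tested members was -1.29, beside 0.74 over all tested genes, and the median absolute change was 2.27 beside 1.32. The median over all tested genes depended on which genes passed the filter. It was -0.69 with a minimum value of 5 and -0.79, -0.79 and -0.76 without resistant library 1, 2 or 3. It was positive in all other alternatives, with 0.95, 0.93 and 0.97 without parental library 1, 2 or 3 and 0.32 with no filter. With 1 library of a line left out, genes reaching 1 only in that line fail the filter. The members' median was not computed in these settings. Members called were 5 lower and 3 higher with a minimum value of 5. They were 6 lower and 3 higher without resistant library 1, 2 or 3. They were 5 lower and 4 higher without parental library 1, 2 or 3, and 6 lower and 6 higher with no filter. Where the median over all tested genes was negative, more members were lower than higher too. Direction alone therefore does not set the members apart in those settings. Of the 10 tested members 6 changed by at least 2 on the log2 scale, beside 23% of all tested genes. Replicate spread was smaller in the resistant line for 9 of the 10, with a median coefficient of variation of 19.2% in parental and 5.68% in resistant libraries, against 25.9% and 10.2% over all tested genes. Parental library 3 held the highest parental value in 8 of 12 members and in 53.2% of tested genes.

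Every gene of the table was called by the authors, so only the direction of the members' neighbours can be described. Within 2 Mb on each side of ITGB6, 8 of 9 other genes of the table were lower in HCC827OR by the authors' deposited table. Around ITGA2B 23 of 25 were higher and around ITGB3 7 of 9, while around ITGA6, which fell, 8 of 11 were higher. Higher genes were 19 of 26 around ITGA5, 22 of 34 around ITGA7 and 14 of 22 around both ITGAX and ITGAD. Counts were nearly even around ITGB4, with 7 higher and 9 lower, and around ITGB2, with 4 higher and 5 lower. Around ITGB8 1 was higher and 3 were lower. ITGA2 had 1 other gene of the table within that distance, which was higher. By the same calls, the share over all genes was 53.9% higher and 46.1% lower. ITGA5 and ITGA7 lie within 2 Mb of each other, as do ITGAX and ITGAD, so each is counted around the other. The stretches around ITGA2B and ITGB3 also overlap, so the counts are not separate. The counts around members are descriptions of the table and were not tested against this share.

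Of the ligands for RGD-binding and related integrins, 18 of 22 listed genes were in the table and 16 were tested, of which 11 rose and 5 fell, with a median log2 fold change of 1.95. The background for this list and each list below was 52.5% higher and 45% lower over all tested genes, with a median of 0.74. Of all protein-coding genes 17.5% were in the table. No list was tested against these shares. In every list a gene could pass the filter through the line in which it is high. The 4 with the smallest adjusted p included the adhesive glycoprotein thrombospondin THBS1, which rose 25.6-fold from 8.09 ± 0.829 to 207 ± 8.74, and the fibrillin FBN1, which rose from 0.207 ± 0.0551 to 35.4 ± 0.763. The matrix protein gene POSTN was listed at 0 in every parental library and had 4.02, 4.64 and 4.62 in the resistant libraries. The fibrinogen chain FGG fell 31.5-fold, from 147 ± 19.7 to 4.67 ± 0.658.

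Fibronectin, vitronectin and osteopontin, named after their values were seen, are textbook ligands of the members above. Fibronectin FN1, the ligand of the receptor with ITGA5, measured 162.85, 122.25 and 141.94 in HCC827 and 901.76, 832.47 and 928.89 in HCC827OR. FN1 therefore rose 6.24-fold, with no overlap between lines and a limma adjusted p of 4.66e-06. Vitronectin VTN, a ligand of ITGAV with ITGB3, had 0.39, 0 and 0.04 against 3.54, 3.03 and 3.77 and rose on the log2 scale by 1.97 (limma adjusted p = 2.53e-05). Osteopontin SPP1 fell 4.29-fold, from 1377.66, 1239.88 and 3547.7 to 474.03, 494.79 and 469.36, and by 2.73-fold without parental library 3.

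**Figure D4:**
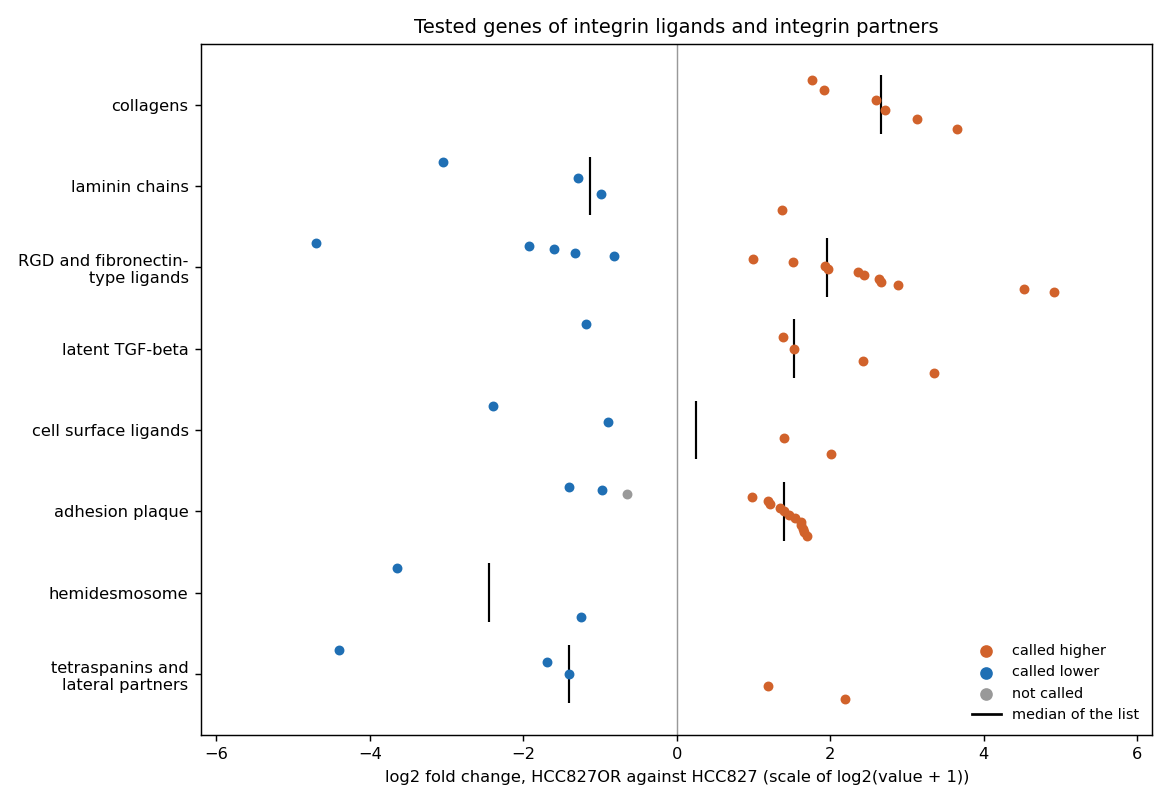
Log2 fold change of HCC827OR against HCC827 on a scale of log2(value + 1) for the tested genes of 8 lists of integrin ligands and partners, each point a gene, with orange for called higher, blue for called lower, grey for not called and a black bar at the list's median. Collagens lie wholly to the right with a median of 2.66, hemidesmosome genes to the left with a median of -2.44, and laminin chains on both sides. The median over all tested genes was 0.74. Among the collagens, COL16A1 and COL4A6 passed the filter through HCC827OR alone.

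Laminin chains, ligands of ITGA6 and ITGA7 receptors, went mostly down, 3 of 4 tested falling and 1 rising (5 of 12 in the table, median log2 fold change -1.13). The chain LAMA3 of epithelial laminin, to which ITGA6 with ITGB4 binds, fell 2.55-fold, from 36.5 ± 4.9 to 14.3 ± 0.16. LAMB2 rose 2.61-fold, from 56.7 ± 4.08 to 148 ± 12.6, and LAMA2, typical of muscle basement membrane, fell from 2.61 ± 0.43 to 0.863 ± 0.499. Of the 4 hemidesmosome partners 2 were in the table and both fell. The transmembrane collagen COL17A1 measured 14.12, 15.35 and 27.55 in HCC827 and 0.18, 0.21 and 1.53 in HCC827OR, a fall of 29.7-fold and of 97.5-fold without resistant library 3. The linker plectin PLEC, which joins ITGB4 to keratin filaments, fell 2.54-fold, from 44.6 ± 15.6 to 17.5 ± 0.772, and lies on chromosome 8 beyond 50 Mb, where 138 of 164 genes of the table were lower.

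Collagens that integrins can bind rose in 6 of 6 tested while the collagen receptor subunit ITGA2 fell (9 of 21 in the table, median log2 fold change 2.66). COL16A1 and COL4A6 reached 1 only in HCC827OR and so passed the filter through the line in which they are high. Without resistant library 1, 2 or 3 the collagens called higher were 4. Basement membrane chains COL4A1 and COL4A2 both rose, COL4A1 from 3.91 ± 0.961 to 60.1 ± 1.55 (15.4-fold) and COL4A2 from 18.3 ± 6.46 to 161 ± 7.41 (8.82-fold). COL6A1 rose 4.92-fold, from 2.44 ± 0.208 to 12 ± 1.15, and COL16A1 from 0.17 ± 0.148 to 6.05 ± 0.289. The other 3 collagens in the table were below the filter. COL3A1 measured 0, 0.03 and 0 in HCC827 and 0.73, 0.89 and 0.81 in HCC827OR, COL6A2 was at 0.747 ± 0.168 against 0.347 ± 0.0208, and the lines overlapped in COL6A3.

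ITGB6 and ITGB8 receptors bind the RGD motif in the propeptides of TGFB1 and TGFB3, genes that were not analysed here. The list of TGF-beta genes, the gene family named latent TGF-beta binding proteins (LTBP) and related genes had 6 of 9 in the table. Of 5 tested 4 rose and 1 fell (median log2 fold change 1.53). Family membership is by name, and binding of latent TGF-beta was not measured. TGFB2 encodes the isoform whose propeptide lacks that motif. TGFB2 rose 10.5-fold, from 13 ± 4.49 to 137 ± 6.62. The family members LTBP1 and LTBP2 rose, LTBP1 with values of 0.09, 0.02 and 0.27 against 4.66, 5.11 and 5.41 and LTBP2 from 1.79 ± 0.333 to 7.03 ± 0.41. LTBP1 rose 39.9-fold by ratio of means and 92-fold without parental library 3. LTBP3 fell 2.32-fold, from 165 ± 36.9 to 71.2 ± 2.36.

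Among cell surface ligands 4 of 12 were in the table, 2 rising and 2 falling with a median log2 fold change of 0.24. ICAM1 and ICAM5, ligands of ITGB2 receptors, rose 2.59-fold and 4.17-fold, ICAM1 from 249 ± 54.3 to 645 ± 29. E-cadherin CDH1 and the junction protein F11R fell, CDH1 from 240.1 ± 25.3 to 44.6 ± 2.19 and F11R from 51.2 ± 12 to 26.5 ± 2.09.

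Of 49 adhesion plaque genes, whose products couple integrin tails to actin, 16 were in the table and 15 were tested. In HCC827OR 12 rose, 2 fell and 1 was not called by limma, with a median log2 fold change of 1.39. Among those with the smallest adjusted p were the kindlin FERMT2, the actin crosslinker ACTN1 and the paxillin relative LPXN, which rose 2.68-fold, 3.08-fold and 3.14-fold. FERMT2 measured 9.81, 10.47 and 11.17 in HCC827 and 26.65, 27.23 and 30.49 in HCC827OR.

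The genes that fell were the epithelial kindlin FERMT1 and the focal adhesion kinase PTK2, and these and talin TLN1 are named after their values were seen. FERMT1 had 15.17, 13.51 and 20.59 against 5.43, 5.91 and 5.12, a fall of 2.99-fold that was opposite in direction to its relative FERMT2. PTK2 had 54.93, 53.39 and 63.89 against 27.37, 29.74 and 28.64, a fall of 2.01-fold. It lies on chromosome 8 beyond 50 Mb with PLEC, and a part of that region in its fall was not tested. TLN1, which binds beta subunit tails, rose 2.66-fold, from 27.8 ± 5.18 to 73.8 ± 3.25.

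Tetraspanins and other lateral partners of integrins were in the table for 5 of 12 genes, 3 falling and 2 rising (median log2 fold change -1.40). CD9 fell 3.24-fold, from 365 ± 14.6 to 113 ± 2.99. TSPAN8 fell from 42.64, 46.12 and 111.87 to 1.83, 2.42 and 1.52, by 34.8-fold and by 23.1-fold without parental library 3. CD82 rose from 4.64, 3.52 and 11.42 to 29.88, 28.85 and 31.51, by 4.61-fold and by 7.37-fold without parental library 3. The immunoglobulin family protein BSG rose 2.29-fold, from 288 ± 22.1 to 659 ± 13.9.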

How the data were processed

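The table, deposited by the authors, lists human Ensembl IDs with a normalized signal in each of 6 libraries and in the mean of each line, then the authors' ratio (fold) between lines, its log2, and the p-value before and after adjustment. Per the file headers the authors named no unit, normalization or test. Per the submitters' processing notes the tool was Bowtie 0.12.2 and the build mm8, a mouse genome. The table's IDs are human, so neither is taken as fact for these values. Counting, annotation, strand use and a human build are not given in the sources used here, and depth is unknown. Groups and replicate numbers came from titles.

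The filter kept 3332 genes that reached 1 in 3 or more libraries and left out 1107. Kept genes were compared by limma 3.58.1 (R 4.3.3) with its trend option after adding a pseudocount of 1 and taking log2, a scale that understates changes of low genes. The test code was run on simulated data in which most genes did not change and both lines had equal spread. Neither holds for this table, so that run does not give the error rate here. Folds are ratios of means, and ± is SD over 3 libraries. Symbols matched 4414 of 4439 IDs. Positions are from GENCODE 29 (GRCh38). Python 3.11.15 and SciPy 1.17.1 served for ratios and sequences, and stretches of 50 bases were compared on both strands. Gene lists and members were chosen with earlier results of these data known, the text naming all members and up to 4 tested genes with the smallest adjusted p per list. Alternatives were the pseudocount, the filter, centring, the trend, a replicate block and leaving out each library; those for list counts were added after seeing the data. Genes absent from the table were not analysed here. Some list genes that the naming rule would give are not reported here.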

Additional observations from a re-analysis of the deposited data

How the results depend on the processing

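All 10 tested integrin subunits kept their direction and their call in every alternative that tested them, 112 member fits in all. The filter left ITGB6 untested by limma in every fit without a parental library. By ratio of means, ITGB6 fell 83-fold, 84.3-fold and 75.8-fold without parental library 1, 2 and 3. The filter left ITGAX untested without a resistant library, and ITGAX and ITGB8 untested with a minimum value of 5. The weakest change was that of ITGB8, whose log2 fold change ran from -1.12 to -0.60 and whose limma adjusted p reached 0.0324. Counts of members ran from 3 to 6 higher and from 5 to 6 lower, because the filter decides which members are tested. Without a filter ITGAD and ITGA2B were also called, with log2 fold changes of 0.38 (limma adjusted p = 0.0031) and 0.70 (limma adjusted p = 0.0091). Over all genes 1749 were higher, but 987 with a minimum value of 5 and 1156 to 1752 when 1 library was left out, since fewer genes were then tested. The smaller counts, 1159, 1160 and 1156, came without resistant library 1, 2 or 3. With a pseudocount of 0.1 the ratio shifts were 4.86 for ITGAX to ITGB2, 4.09 for ITGAD to ITGB2 and -1.82 for ITGA2B to ITGB3, as the added constant outweighs such low values. Libraries of equal number did not deviate together (correlations 0.026, 0.026 and -0.028). These values cannot show whether libraries of equal number shared a culture or a preparation. With the replicate block 1750 genes were higher and 1508 lower, and no member's call changed. No call or direction of the 57 tested list genes was lost in the alternatives that tested them. Without a filter 1 collagen, COL6A2, was also called lower. Collagens called higher then went from 6 to 7, and genes of the TGF-beta list called higher from 4 to 5. Adhesion plaque genes called lower went from 2 to 3 without a filter. They were also 3 with centring, with the replicate block and without parental library 1. Depth is unknown, which limits what can be said of values below 1.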

Other observations

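Transcripts beside ITGB1, the common beta partner that was not analysed here, were in the table. The divergent transcript ITGB1-DT (chromosome 10, 32958845 to 33082102) measured 17.88, 18.69 and 27.92 in HCC827 and 102.12, 105.03 and 109.42 in HCC827OR, so that it rose 4.91-fold, or by 2.27 on the log2 scale (limma, adjusted p = 2.24e-05). The nearby non-coding gene IATPR had 0.41, 0.19 and 0.23 in HCC827 against 3.97, 5.07 and 3.19 in HCC827OR and rose by 1.98 on the log2 scale (limma, adjusted p = 3.08e-05). Both were named after their values were seen, and neither gives the level of ITGB1 itself. The integrin-like gene ITGBL1, which encodes no receptor subunit, was at 0.16, 0.12 and 0.03 against 0.62, 0.88 and 0.73 and was too low to be tested.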
